A study of Mus musculus with 10 samples.

Results

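The cytochrome P450 genes of mouse inguinal fat were taken from the deposited expression table as every row of protein-coding type whose symbol begins with Cyp and a digit, Cyp51 aside. This gave 84 genes of the 31285 in the table, in 15 families and 37 subfamilies. Of these, 21 genes in 16 subfamilies reached 1 FPKM (fragment abundance corrected for gene length and library total) in at least 5 of the 10 libraries and were tested, and 63 did not. The study sequenced polyadenylated RNA from inguinal white adipose tissue, the subcutaneous depot of the groin, of mice aged 20 months, kept on regular chow and water without restriction. One group of 5 samples carries the genotype label Flox, and the other group of 5 is labelled GHR Knockdown and named Ad-GHRKO in the series, whose title speaks of loss of the growth hormone receptor in adipose tissue alone. The labels used here do not give the promoter that drives deletion in fat, the strain or whether each sample came from its own animal, so a p-value speaks only of the spread among the samples.

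Cytochrome P450 enzymes are heme proteins that insert an oxygen atom into small molecules, with electrons passed on from NADPH by the reductase Por or, in mitochondria, by ferredoxin. Families 1 to 3 handle mainly foreign compounds, family 4 hydroxylates fatty acids, and most of the remaining families act on sterols, bile acids, retinoids and steroids. Liver holds the highest levels of most of them, where growth hormone acting through its receptor and STAT5 sets the sex-biased pattern of many, while fat expresses a narrower set.

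The targeted gene was low in every library labelled as the knockout: Ghr was at 72.9, 129.8, 89.7, 80.9 and 94.1 FPKM in Flox 1 to 5 and at 15.1, 20.1, 13.0, 16.7 and 17.9 FPKM in Ad-GHRKO 1 to 5. Its log2 change, on the scale of log2(FPKM + 1) used for all changes here, was -2.41 (SE 0.17, adjusted p = 6.54e-05, limma with Benjamini-Hochberg adjustment over all genes tested). Reads recovered from the FPKM values came to 14.6 to 19.3 M per library (M, mega). All 8 adipocyte markers were tested, and their summed level of 6791 to 10921 FPKM in Flox overlapped the 3403 to 9692 FPKM in Ad-GHRKO. The sum covers members with opposite signs, and none passed the threshold in limma or limma voom. At an unadjusted p under 0.05 in limma, 1 was higher and 3 were lower, beside 7.86% and 8.49% of all tested genes. Adipoq (1247 to 2452 FPKM in Flox, 458 to 1178 in Ad-GHRKO; log2 change -1.01, adjusted p = 0.117) and Retn (508 to 1065 and 165 to 487; -1.33, adjusted p = 0.0550) had groups that did not overlap, and Lep had a log2 change of 1.35 (adjusted p = 0.115). Libraries also stood apart in other tissue. The 14 skeletal muscle markers summed to 24028 FPKM in Flox 3, 36409 in Flox 5 and 63526 in Ad-GHRKO 1, to 932 in Ad-GHRKO 5 and to 22.8 to 92.3 FPKM in the remaining 6. Hepatocyte markers were uneven too, as given with the low P450 genes. Because tissue was sequenced in bulk, fewer cells of a type and less RNA per cell cannot be told apart.

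The P450 transcripts of Flox fat were mostly Cyp2e1 and those of Ad-GHRKO fat were not. The FPKM of all 84 genes summed to 916, 806, 782, 959.7 and 894 in Flox 1 to 5 and to 291, 347, 362, 326 and 354 in Ad-GHRKO 1 to 5, so that the 2 groups did not overlap. Cyp2e1 alone made up 69.6% ± 6.38 of that sum in Flox and 11.4% ± 4.26 in Ad-GHRKO (SD, n = 5 each). With Cyp2e1 left out the sums were 265 ± 61.0 and 298 ± 30.5 FPKM (SD, n = 5 each), and the groups overlapped. Cyp4b1 made up 4.69% ± 1.93 of the sum in Flox and 24.7% ± 6.29 in Ad-GHRKO, Cyp27a1 4.11% ± 0.810 and 14.2% ± 1.25, and Cyp4v3 1.56% ± 0.501 and 11.0% ± 2.93 (SD, n = 5 each). These shares depend on Cyp2e1, which is part of the total. The most abundant P450 gene was Cyp2e1 in each Flox library, Cyp4b1 in Ad-GHRKO 2 to 5 and Cyp27a1 in Ad-GHRKO 1.

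**Figure D1:**
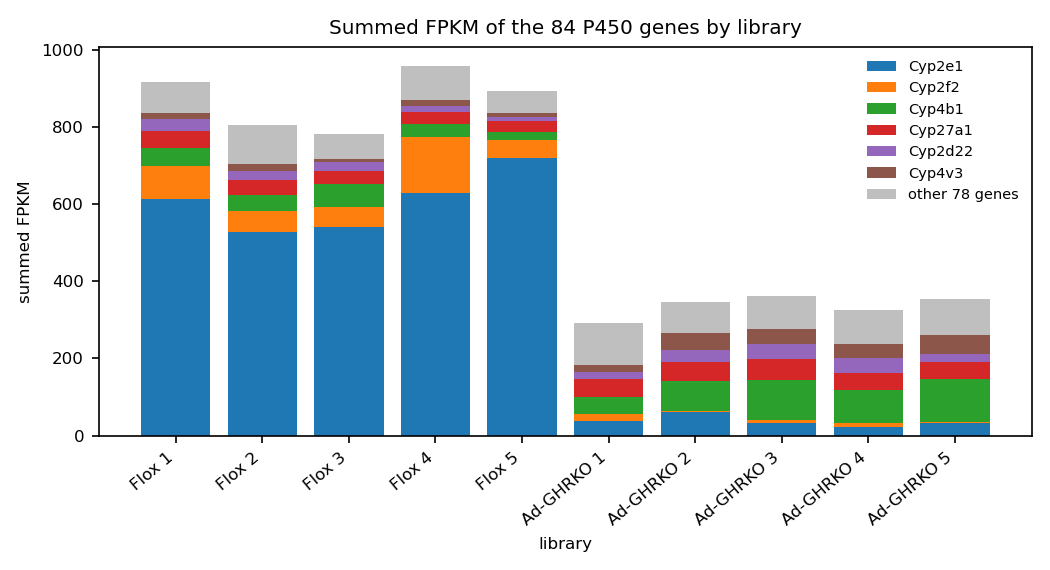
Summed FPKM of the 84 P450 genes in each of the 10 libraries, stacked by gene with 78 genes joined in grey. The Flox bars reach 782 to 959.7 FPKM and are mostly Cyp2e1, while the Ad-GHRKO bars reach 291 to 362 FPKM.

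Of the 21 tested genes, 3 were lower in Ad-GHRKO (Cyp2e1, Cyp2f2 and Cyp1a1), 3 were higher (Cyp26b1, Cyp4a32 and Cyp4v3) and 15 did not pass an adjusted p of 0.05 in limma. These 6 calls are 28.6% of the tested P450 genes, against 2.19% of the 12785 genes tested in all. By direction the background was 0.774% higher and 1.42% lower. Rescaling each library to the same sum (TPM) turned that split of all calls from 99 higher and 181 lower to 141 higher and 93 lower, and the counts among the P450 genes stayed at 3 and 3. Cyp4a32 entered the test only through its Ad-GHRKO libraries, so it had to differ, and 5 of 20 were called without it. The median log2 change of the 21 genes was 0.17, beside 0.04 over all genes tested. In 5 of the 21 (23.8%) all libraries of one genotype lay above all of the other, which 4.97% of all tested genes did. Without Cyp4a32, for which the filter fixed this, it was 4 of 20 (20.0%). Both counts without Cyp4a32 still hold Cyp1a1. That gene met the filter through its 5 Flox libraries, with 1 Ad-GHRKO library at 1 FPKM or more.

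**Figure D2:**
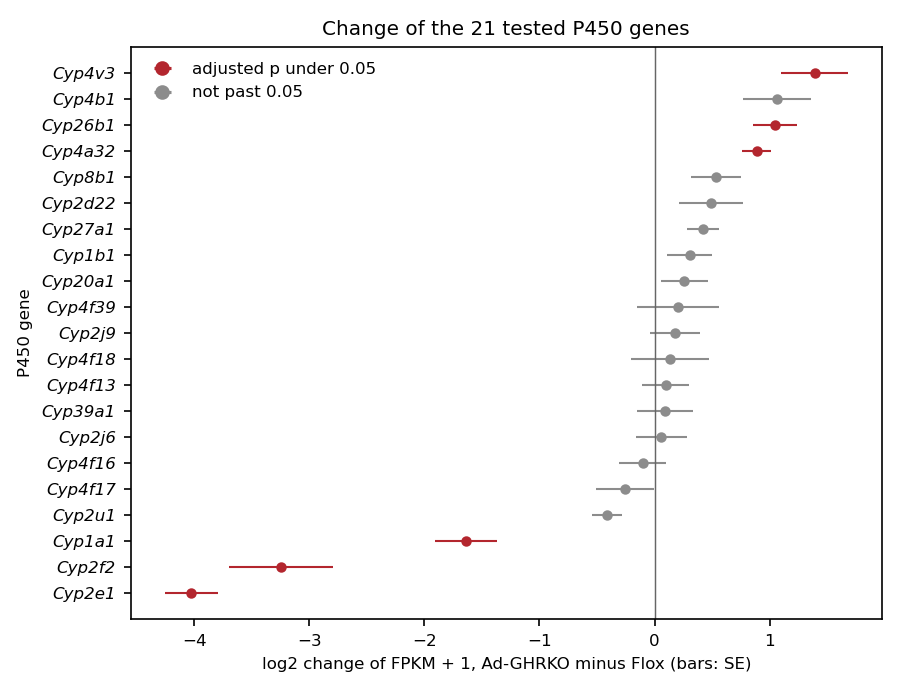
Log2 change of FPKM + 1 (Ad-GHRKO minus Flox) of the 21 tested P450 genes, with bars for the SE, in order of the change. The 6 genes past an adjusted p of 0.05 are in red, with Cyp2e1 at -4.02 and Cyp2f2 at -3.25 at the low end and Cyp4v3 at 1.39 at the high end.

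Sequence upstream of the start was available from RefSeq for 64 of the 84 genes and for 17 of the 21 tested ones. The 250 bases before the RefSeq start of the 3 genes that fell are shown because these genes moved together. That start lies inside the gene model of the deposited table, near its first base for Cyp2e1 and Cyp2f2 and well inside it for Cyp1a1, and distances are counted from it. They are given 5′ to 3′ on the coding strand, in build GRCm38.p6: Cyp2e1 at chr7:140763569-140763818, Cyp2f2 at chr7:27119705-27119954 and Cyp1a1 at chr9:57697363-57697612, all on the plus strand. Capitals mark motif matches on either strand.
Cyp2e1: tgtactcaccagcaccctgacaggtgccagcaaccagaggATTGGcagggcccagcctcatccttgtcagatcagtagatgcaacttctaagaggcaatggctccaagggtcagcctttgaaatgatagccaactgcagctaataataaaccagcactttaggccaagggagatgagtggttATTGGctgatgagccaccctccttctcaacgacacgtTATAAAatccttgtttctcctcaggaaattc
Cyp2f2: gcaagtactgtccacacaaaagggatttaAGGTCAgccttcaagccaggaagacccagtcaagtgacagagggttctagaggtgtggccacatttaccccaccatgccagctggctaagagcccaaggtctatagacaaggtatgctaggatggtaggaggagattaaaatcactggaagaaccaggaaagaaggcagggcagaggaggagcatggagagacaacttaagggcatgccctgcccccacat
Cyp1a1: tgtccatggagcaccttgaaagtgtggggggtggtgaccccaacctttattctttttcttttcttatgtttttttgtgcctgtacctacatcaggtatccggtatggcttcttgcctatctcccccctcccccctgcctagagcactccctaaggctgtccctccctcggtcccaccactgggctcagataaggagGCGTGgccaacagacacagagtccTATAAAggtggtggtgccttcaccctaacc

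In the Cyp2e1 window the capitals are a TATA box (TATAAA) that begins 31 bases before the start and a pair of CCAAT boxes on the minus strand, read as ATTGG. In the Cyp1a1 window they are the core of the xenobiotic response element (GCGTG), to which the aryl hydrocarbon receptor binds, 54 bases before the start, and a TATA box 30 bases before it. The Cyp2f2 window holds neither of these and has a nuclear receptor half-site (AGGTCA) 221 bases before the start. The STAT5 motif TTCNNNGAA was searched as well and is in none of the 3 windows, nor in those of Cyp26b1, Cyp4a32 and Cyp4v3. Among the genes that rose, Cyp26b1 has a TATA box 139 bases before the start, Cyp4a32 has one at 113 bases and a CCAAT box at 80 bases, and Cyp4v3 has GCGTG at 16 bases. Of 32851 promoter windows of this length, 12.37% hold TATAAA, 33.85% CCAAT, 28.16% GCGTG, 14.02% AGGTCA and 7.02% TTCNNNGAA on either strand. In the windows shown no match overlaps another, and a match describes the letters only.

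Cyp2e1 (ENSMUSG00000025479, chromosome 7, 140763739 to 140774987 on the plus strand) oxidises ethanol, acetone and other small molecules in liver. It was at 614, 527, 541, 629 and 721 FPKM in Flox 1 to 5 and at 39.1, 61.6, 33.8, 22.6 and 33.1 FPKM in Ad-GHRKO 1 to 5. The lowest Flox library was above every Ad-GHRKO library, and the group means differed 15.9-fold. The log2 change was -4.02 (SE 0.23, adjusted p = 1.94e-05 in limma), and the exact two-sided permutation p was 0.00794, the smallest that 5 against 5 libraries allow. No other tested gene had a smaller p or a more negative log2 change. By mean FPKM, Cyp2e1 was the 57th most abundant gene of the whole table in Flox and the 1271st in Ad-GHRKO. The reads behind these values ran from 20299 to 29622 in Flox and from 940 to 2552 in Ad-GHRKO. The log2 change was -4.02 without the 3 muscle-rich libraries and -3.89 without the 4 libraries richest in hepatocyte markers, both past the threshold. Its closest relative among the P450 transcripts is Cyp2c29, at 66.3% identity over 1144 aligned bases.

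Cyp2f2 (ENSMUSG00000052974, chromosome 7, 27119909 to 27133660 on the plus strand) activates naphthalene and is best known from airway club cells and from liver. Its values were 85.3, 55.4, 52.7, 145 and 44.5 FPKM in Flox 1 to 5. In Ad-GHRKO 1 to 5 they were 16.9, 2.91, 6.04, 10.7 and 2.91 FPKM. The genotypes did not overlap, but each varied over several-fold within itself. The log2 change was -3.25 (SE 0.45, adjusted p = 0.00436 in limma; exact permutation p = 0.00794), the third most negative of all genes tested. Flox 4, Ad-GHRKO 1 and Ad-GHRKO 4, the high libraries of each group, were also among the 4 richest in hepatocyte markers. Flox 1 was second in Cyp2f2 and lowest of all 10 libraries in the sum of the hepatocyte markers without Alb. With Alb, Flox 1 was at 18.2 FPKM, above Flox 3 at 16.0 and Ad-GHRKO 3 at 14.2. Flox 2, the Flox library richest in the markers, was at the Flox median of Cyp2f2. Without the 4 libraries richest in the markers the log2 change was -3.65 (adjusted p = 0.00622 in limma). The part of hepatocyte or airway RNA in Cyp2f2 was not tested. Of 5 club cell markers, 4 were in the table, and each stayed under 1 FPKM in every library, with a sum of at most 0.964 FPKM in Flox and 0.888 in Ad-GHRKO. Between 26061497 and 27158668 on chromosome 7, Cyp2f2 lies among 10 other P450 genes, of subfamilies Cyp2a, Cyp2b, Cyp2g and Cyp2t. None of these reached the filter or more than 2.70 FPKM in any library. Cyp2b10 and Cyp2s1 lie before this stretch and did not reach the filter either. An antisense gene, Gm15883, overlaps Cyp2f2 at a mean of 0.45 FPKM. The sources do not say whether reads were counted by strand.

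Cyp1a1 (ENSMUSG00000032315, chromosome 9, 57687928 to 57703824 on the plus strand), the classic target of the aryl hydrocarbon receptor, oxidises polycyclic aromatic hydrocarbons. It was at 1.76, 6.05, 3.60, 3.36 and 6.37 FPKM in Flox 1 to 5, from 78 to 338 reads. In Ad-GHRKO 1 to 5 it was at 0.549, 0.486, 0.988, 1.01 and 0.0736 FPKM, the last from 3 reads. The highest Ad-GHRKO library was below the lowest Flox library, and the means, 4.23 ± 1.94 and 0.621 ± 0.389 FPKM (SD, n = 5 each), differed 6.81-fold. The log2 change of -1.64 (SE 0.27, adjusted p = 0.0125 in limma; exact permutation p = 0.00794) understates this at such low levels, and was -2.71 with a pseudocount of 0.1. The call ended without the filter on low values (adjusted p = 0.0511) and without the 4 hepatocyte-rich libraries (0.0812). Cyp1b1, a family member that oxidises estradiol among other substrates, did not pass, at 5.14 ± 1.21 against 6.67 ± 1.76 FPKM (SD, n = 5 each, adjusted p = 0.50 in limma). The third member of the family, Cyp1a2, is a liver enzyme, was not tested and reached 2.85 FPKM at most.

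Cyp26b1 (ENSMUSG00000063415, chromosome 6, 84571414 to 84593908 on the minus strand) breaks down retinoic acid. It was at 3.73, 2.25, 3.49, 1.85 and 4.45 FPKM in Flox 1 to 5 and at 6.80, 6.91, 8.69, 5.91 and 8.85 FPKM in Ad-GHRKO 1 to 5. Every Ad-GHRKO library was above every Flox library, with a ratio of means of 2.35. The log2 change was 1.05 (SE 0.19, adjusted p = 0.0186 in limma; exact permutation p = 0.00794). The call ended without Flox 2 (0.0526), Ad-GHRKO 3 (0.0603) or Ad-GHRKO 5 (0.0560), where the log2 change was 0.97 to 0.99, and without the filter (0.0574). Of the other retinoid genes read as a list, Aldh1a1, which makes retinoic acid, rose as well.

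Cyp4v3 (ENSMUSG00000079057, chromosome 8, 45304944 to 45333216 on the minus strand) hydroxylates fatty acids. It was at 17.9, 17.4, 8.20, 14.9 and 9.68 FPKM in Flox 1 to 5 and at 17.9, 45.0, 39.1, 38.4 and 47.9 FPKM in Ad-GHRKO 1 to 5. Ad-GHRKO 1, the library richest in muscle and hepatocyte markers, lay inside the Flox range and the other 4 lay above it. The log2 change was 1.39 (SE 0.29, adjusted p = 0.0332 in limma; exact permutation p = 0.0159). Leaving out 1 library ended the call in 8 of 10 cases (Flox 1 and Ad-GHRKO 1 were the exceptions), with adjusted p up to 0.0908 and a log2 change from 1.24. Without the 3 muscle-rich libraries the log2 change was 1.30 (adjusted p = 0.00532 in limma). The predicted gene Gm45753 overlaps it on the same strand, and the sources do not say how reads were divided between them.

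Cyp4a32 (ENSMUSG00000063929, chromosome 4, 115600969 to 115621602 on the plus strand) belongs to the Cyp4a enzymes that hydroxylate the end of fatty acid chains. It was at 0.369, 0.292, 0.559, 0.219 and 0.205 FPKM in Flox 1 to 5, from 6 to 16 reads. In Ad-GHRKO 1 to 5 it was at 1.10, 1.36, 1.93, 1.39 and 1.51 FPKM, from 31 to 56 reads. No Flox library and every Ad-GHRKO library was at or above 1 FPKM, so it passed the filter only through Ad-GHRKO, and the lack of overlap is no separate finding. The means differed 4.43-fold, and the log2 change was 0.89 (SE 0.12) and 1.90 with a pseudocount of 0.1. The fit without a filter, which does not have this limit, gave an adjusted p of 0.0210 in limma, and the filtered fit 0.00435. Without the 4 hepatocyte-rich libraries the adjusted p was 0.0515. Its transcript is 97.2% identical to that of Cyp4a10 over 1530 bases, so the split of reads between these copies is uncertain. Cyp4a10 itself had 17 reads over the Flox libraries and 43 over the Ad-GHRKO libraries, 32 of them in Ad-GHRKO 1.

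**Figure D3:**
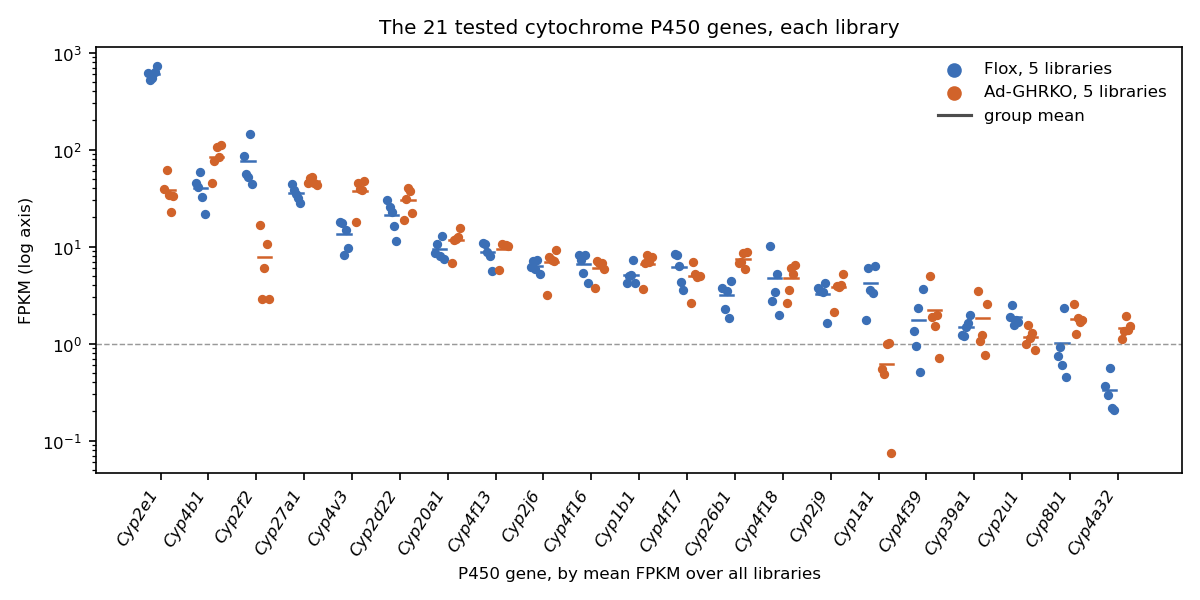
FPKM (log axis) of the 21 tested P450 genes in each library, with a short bar at each group mean and a dashed line at 1 FPKM. The 2 groups are apart for Cyp2e1, Cyp2f2, Cyp1a1, Cyp26b1 and Cyp4a32 and overlap for the other 16 genes.

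A further 3 genes were abundant and did not pass. Cyp4b1, which oxidises fatty acids and foreign compounds, lies 3122 bases from Cyp4a32 on the opposite strand. It was at 45.6, 41.2, 58.7, 32.8 and 21.6 FPKM in Flox 1 to 5 and at 44.8, 76.2, 106, 83.8 and 111 FPKM in Ad-GHRKO 1 to 5, so that only Ad-GHRKO 1 lay within the Flox range. Its log2 change of 1.06 (SE 0.29, adjusted p = 0.0945 in limma) passed the threshold at 1.27 without Ad-GHRKO 1 (adjusted p = 0.0172) and at 1.21 without the 3 muscle-rich libraries (0.0165). Cyp27a1, the mitochondrial sterol hydroxylase, was at 35.5 ± 6.25 FPKM in Flox and 47.4 ± 4.09 in Ad-GHRKO (SD, n = 5 each). Its libraries ran from 28.4 to 44.6 in Flox and from 43.1 to 52.7 in Ad-GHRKO, with a small overlap, and the log2 change was 0.42 (SE 0.14, adjusted p = 0.159 in limma). Cyp2d22, a Cyp2d gene expressed outside the liver, was at 11.5 to 30.2 FPKM in Flox and 18.7 to 40.1 in Ad-GHRKO, with wide overlap (log2 change 0.49, SE 0.28, adjusted p = 0.429 in limma).

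The remaining 11 tested genes besides Cyp1b1 all had overlapping groups. The 5 Cyp4f genes, whose enzymes hydroxylate leukotrienes and fatty acids, had means of 1.77 to 8.79 FPKM in Flox and 2.21 to 9.45 FPKM in Ad-GHRKO, with log2 changes from -0.26 (Cyp4f17) to 0.21 (Cyp4f39). Of these, 4 lie together on chromosome 17, and Cyp4f16 is 96.1% identical to Cyp4f37, so its value is uncertain. Cyp2j6 and Cyp2j9, arachidonic acid epoxygenases 14767 bases apart on chromosome 4, had log2 changes of 0.06 and 0.17. Cyp8b1, which decides the type of bile acid made, was at 1.01 ± 0.756 FPKM in Flox and 1.81 ± 0.470 in Ad-GHRKO (SD, n = 5 each, adjusted p = 0.244 in limma). Cyp2u1, a fatty acid hydroxylase, was at 1.88 ± 0.373 and 1.17 ± 0.278 FPKM in the same order (adjusted p = 0.139 in limma). The oxysterol hydroxylase Cyp39a1 and Cyp20a1, whose substrate is unknown, had log2 changes of 0.09 and 0.26. None of these adjusted p-values shows that the levels were alike.

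The 63 genes under the filter include whole subfamilies best known from liver. Of them, 22 reached 1 FPKM in some library, 41 in none, and 22 had fewer than 10 reads over all libraries. The highest mean was that of Cyp2d26 at 1.32 FPKM, followed by Cyp2d10 at 0.953 and Cyp2c70 at 0.922. The nearest to the filter by the fifth highest library were Cyp2d26 at 0.813 FPKM, Cyp4f14 at 0.788 and Cyp2c70 at 0.786, while Cyp4a32 was the lowest gene inside it by mean. With no filter, 3 of all 84 P450 genes (3.57%) passed, namely Cyp2e1, Cyp2f2 and Cyp4a32, against 0.374% of all genes in the table. Among the 63, none passed, and 3 had an unadjusted p under 0.05 in limma: Cyp4a31, Cyp2b9 and Cyp2b10. That is no larger a share than the 6.14% of all genes under the filter at that level. The families of adrenal and gonadal steroid synthesis had no tested gene, and 4 of their 5 genes had at most 5 reads in either group, among them Cyp17a1. The exception was Cyp11a1, which cuts the cholesterol side chain, with reads in every library (238 over Flox and 220 over Ad-GHRKO) and levels of 0.284 to 1.25 FPKM in Flox and 0.136 to 0.741 in Ad-GHRKO.

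Reads on these 63 genes were most numerous in the libraries with most hepatocyte marker signal. They numbered 343, 1334, 224, 910 and 221 in Flox 1 to 5 and 2504, 375, 403, 723 and 477 in Ad-GHRKO 1 to 5. Over the same libraries, 7 hepatocyte markers (all of the list but Alb) summed to 0.721, 114, 1.26, 48.1 and 7.99 FPKM and to 217, 1.80, 0.752, 28.8 and 14.3 FPKM. Ad-GHRKO 1 was highest in both, then Flox 2, Flox 4, Ad-GHRKO 4 and Ad-GHRKO 5. With Alb included in the marker sum, Flox 5, which had the fewest reads, was at 33.2 FPKM and stood above Ad-GHRKO 5 at 26.2. The 11 Cyp2c genes under the filter gave 743 reads in Ad-GHRKO 1, 433 in Flox 2 and 180 in Flox 4, and 8 to 118 reads in the remaining libraries. Their summed FPKM per FPKM of the 7 markers was 0.0940 in Flox 2, 0.0939 in Flox 4, 0.0797 in Ad-GHRKO 1 and 0.0926 in Ad-GHRKO 4, the 4 libraries with most marker signal. In the other 6, where both sums are low, it ran from 0.0701 in Flox 5 through 0.149 in Ad-GHRKO 5 to 0.640 in Ad-GHRKO 3, so the ratio was not constant over the libraries. Untested Cyp2a, Cyp2d and Cyp3a genes were also highest in Ad-GHRKO 1, at 198, 572 and 400 reads, whereas the 5 Cyp2b genes gave 10 to 31 reads with no such order. Of the 8 hepatocyte markers, 6 were tested, none passed in limma or in limma voom, and none had an unadjusted p under 0.05. The part of hepatocyte RNA in the low P450 genes was not tested.

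Cyp2e1 is given here beside the hepatocyte markers of the same libraries. Flox 1 and Flox 3, with 0.721 and 1.26 FPKM of the 7 hepatocyte markers, held 614 and 541 FPKM of Cyp2e1, and Ad-GHRKO 2 and Ad-GHRKO 3, with 1.80 and 0.752 FPKM, held 61.6 and 33.8. Ad-GHRKO 1, with 217 FPKM of the markers, held 39.1 FPKM of Cyp2e1, and Flox 2, with 114 FPKM, held 527. The part of hepatocyte RNA in Cyp2e1 was not tested.

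**Figure D4:**
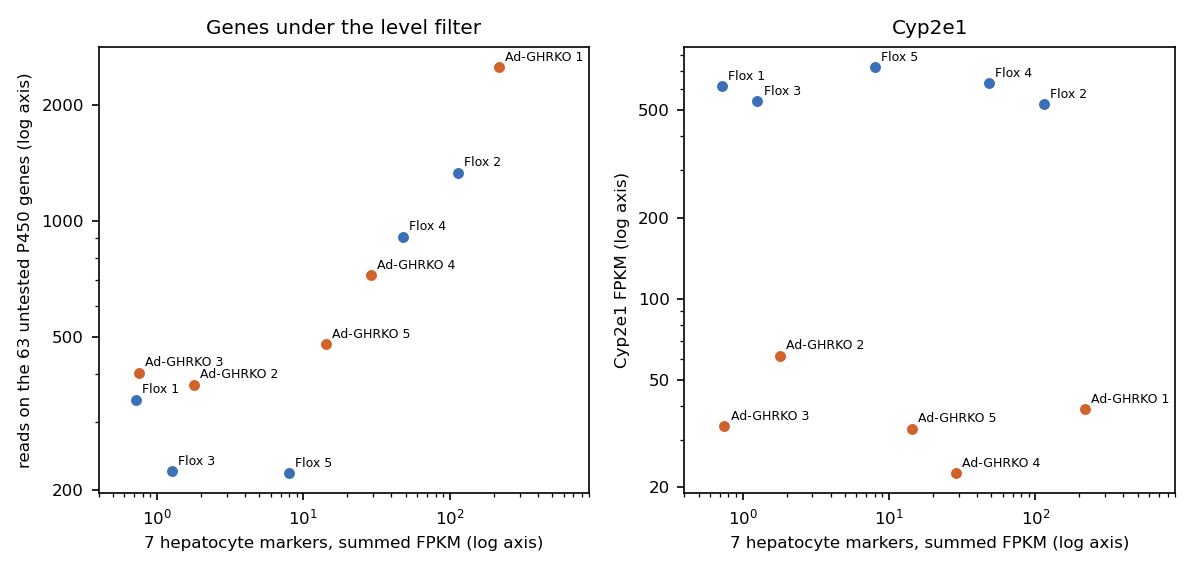
Summed FPKM of 7 hepatocyte markers (log axis) against reads on the 63 untested P450 genes (left, log axis) and against Cyp2e1 FPKM (right, log axis), 1 labelled point per library. On the left the 5 libraries with most signal of these 7 markers, which leave out Alb, have the most reads, from 477 to 2504. On the right the Flox libraries lie at 527 to 721 FPKM and the Ad-GHRKO libraries at 22.6 to 61.6 FPKM.

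Genes that work with the P450 enzymes were read from 9 lists. Beside counts at an unadjusted p under 0.05 in these lists, 7.86% of all tested genes were higher and 8.49% lower at that level. Beside the calls in these lists, 0.774% of all tested genes were called higher and 1.42% lower in limma. None of the 11 tested redox partners passed in limma or in limma voom, and none had an unadjusted p under 0.05. Cyb5a, the cytochrome that donates an electron to some P450 enzymes, was the most abundant over all libraries, at 114 ± 28.1 FPKM in Flox, where Por was at 115 ± 2.09, and 126 ± 42.2 in Ad-GHRKO, where Por was at 103 ± 29.9 (SD, n = 5 each), and Pgrmc2 had the smallest p (log2 change -0.46, adjusted p = 0.336 in limma). Among 16 genes of heme synthesis and breakdown, 1 rose and none fell in limma, with 2 higher and 4 lower at an unadjusted p under 0.05. Blvra, which reduces biliverdin, went from 9.28 ± 1.93 to 24.8 ± 9.50 FPKM (SD, n = 5 each; log2 change 1.25, SE 0.28, adjusted p = 0.0463 in limma), with Ad-GHRKO 1 inside the Flox range, and its call ended in 9 of 10 fits that left out 1 library (adjusted p up to 0.117; Ad-GHRKO 1 was the exception). Hmox1, the heme oxygenase before it in that path, was at 28.5 ± 11.7 and 52.9 ± 14.9 FPKM (adjusted p = 0.132 in limma).

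None of the 16 tested xenobiotic and lipid receptors and their cofactors passed in limma or in limma voom, with 1 higher and 2 lower at an unadjusted p under 0.05. Tiparp, a target of the aryl hydrocarbon receptor that represses it, had a log2 change of 0.46 (adjusted p = 0.175 in limma), and the abundant Pparg, the main regulator of fat cell genes, one of -0.63 (adjusted p = 0.269). Of the 8 tested regulators that link growth hormone to liver P450 genes, none passed in either fit, with 1 higher and 2 lower at an unadjusted p under 0.05. Bcl6, a repressor that STAT5 holds down in liver, had the smallest p, at 17.8 ± 3.24 FPKM in Flox and 11.6 ± 2.09 in Ad-GHRKO (SD, n = 5 each; log2 change -0.58, adjusted p = 0.0908 in limma). Cebpa was the most abundant of them, with a log2 change of -0.60 (adjusted p = 0.316).

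Of 28 tested enzymes of other phase I reactions, 1 rose and 1 fell, beside 0.774% and 1.42% of all tested genes. At an unadjusted p under 0.05 in limma, 6 were higher and 6 lower. Aldh1a1, a retinaldehyde dehydrogenase, was at 37.3 to 60.0 FPKM in Flox and 68.6 to 121 FPKM in Ad-GHRKO with no overlap (log2 change 1.16, SE 0.20, adjusted p = 0.0137 in limma), and held its call in all 24 alternatives run. It was also the only gene past the threshold among the 12 tested genes of retinoid handling, which include the plasma retinol carrier Rbp4 (log2 change -0.55, adjusted p = 0.485). Maob, a monoamine oxidase, ran from 22.1 to 30.7 FPKM in Flox and from 13.8 to 19.1 in Ad-GHRKO (log2 change -0.66, SE 0.14, adjusted p = 0.0319 in limma), and lost its call in 7 of 10 fits that left out 1 library. The most abundant enzyme of the list, the carboxylesterase Ces1d, had a log2 change of -0.56 (adjusted p = 0.368).

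Of 31 tested phase II enzymes, which conjugate what phase I has oxidised, 1 fell and none rose in limma or in limma voom. At an unadjusted p under 0.05 in limma, 1 was higher and 2 were lower. Gsta4, a glutathione transferase for lipid aldehydes, was at 26.5 to 47.9 FPKM in Flox and 9.84 to 22.8 in Ad-GHRKO with no overlap (log2 change -1.36, SE 0.24, adjusted p = 0.0151 in limma), and lost its call in 3 of 24 alternatives (adjusted p up to 0.0600). Gstm1 was the most abundant over all libraries, through Ad-GHRKO at 371 ± 112 FPKM, while in Flox it was at 213 ± 35.1 (SD, n = 5 each), below Mgst1 and Mgst3 at means of 251 and 234 (log2 change of Gstm1 0.75, adjusted p = 0.146 in limma). Among 13 tested sterol and steroid partners, 1 rose and 1 fell, with 3 higher and 4 lower at an unadjusted p under 0.05. Hsd11b1, which activates glucocorticoids, ran from 41.2 to 57.8 FPKM in Flox and from 12.3 to 37.9 in Ad-GHRKO (log2 change -1.33, SE 0.28, adjusted p = 0.0347 in limma), and 6 of 10 fits without 1 library ended the call. Akr1c14, a hydroxysteroid dehydrogenase, went from 0.974 ± 0.217 to 2.17 ± 0.618 FPKM (SD, n = 5 each; log2 change 0.67, SE 0.15, adjusted p = 0.0407 in limma), and 9 of those 10 fits ended the call. Scp2, a sterol carrier and the most abundant, had a log2 change of -0.51 (adjusted p = 0.259). None of the 15 tested eicosanoid enzymes passed in limma or in limma voom, with 1 higher and 3 lower at an unadjusted p under 0.05. Among them the epoxide hydrolases Ephx1 and Ephx2, which open the products of P450 epoxygenases, had log2 changes of 1.01 (adjusted p = 0.103) and -0.72 (adjusted p = 0.271). The medians of these lists ran from -0.20 to 0.10, beside 0.04 over all tested genes.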

How the data were processed

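The authors deposited 1 table of FPKM values with 1 column per library, per the file headers. Per the labels' protocols, RNA was selected by oligo(dT) and the second strand was marked; no aligner or counter is named in the sources used here. Submitters' processing notes name GRCm39, but 99.6% of 31253 shared identifiers carry the GRCm38 coordinates of GENCODE M21, so coordinates are given as GRCm38. FPKM, exon length and a constant per library gave whole reads within 0.01 for 99.4% to 99.5% of values.

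The 12785 genes at 1 FPKM or more in 5 or more libraries were tested together, two-sided, on log2(FPKM + 1) with limma 3.58.1 (R 4.3.3), a mean-variance trend and Benjamini-Hochberg adjustment at 0.05. The P450 genes past the limma threshold and Ghr were also compared by exact permutation tests, without adjustment. For a gene whose groups do not overlap, that p is the smallest possible, so it adds nothing to the lack of overlap. The fit was tested on simulated data. Those counts had the same dispersion for every gene and no tissue differences between libraries, so they check only how the fit was run. Tables and figures used Python 3.11.15, pandas 2.3.3 and matplotlib 3.10.9, and transcripts were compared with BLAST 2.17.0. Promoter sequences are from RefSeq, build GRCm38.p6.

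The members, gene lists and tests were chosen with earlier results of these data known. Named are all P450 genes past the threshold, the 3 most abundant of the rest, of the untested genes the 3 highest and the 3 nearest to the filter, and of each list up to 4 genes past the threshold (or that with the smallest p) and the most abundant. Of the cell type lists, sums are given for adipocyte, skeletal muscle, hepatocyte and club cell markers. Values of the epithelium, macrophage, endothelium, fibroblast, B cell and smooth muscle lists are not given. Further genes (Adipoq, Retn, Lep, Por, Mgst1, Mgst3, Cyp1a2, Cyp1b1, Cyp4a10, Cyp11a1, Cyp17a1 and those of the unfiltered fit) were chosen after their values were seen. Alternatives were pseudocounts, filters, scalings, array weights, a replicate block, a muscle covariate, a robust prior and leaving out each library. Chosen after seeing the data were limma voom on the recovered reads and fits that left out the 3 muscle-rich or the 4 hepatocyte-rich libraries.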

Additional observations from a re-analysis of the deposited data

Results flagged for a closer look

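Among 48 groups of 5 libraries examined (the tested P450 genes, Ghr and the P450 sums, in each genotype), 5 had 1 library set far apart from its nearest neighbour; chance alone does this in about 1 of 20 groups. Cyp1b1 was flagged in both genotypes: Flox 4 was highest at 7.20 FPKM with the next library at 5.04, and Ad-GHRKO 1 was lowest at 3.66 with the next at 6.84. Cyp4f13 was lowest in Ad-GHRKO 1 at 5.67 FPKM, the next library being at 10.2. Cyp8b1 was highest in Flox 4 at 2.33 FPKM, the next Flox library being at 0.919. Reads on the 63 untested P450 genes were highest in Ad-GHRKO 1 at 2504, the next library of its group being at 723. Ad-GHRKO 1 was also the library richest in muscle and hepatocyte markers, and the part of that tissue in these values was not tested.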

How the results depend on the processing

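Cyp2e1, Cyp2f2 and Ghr kept their direction and their call in all 24 alternatives run. TPM rescaling moved the median log2 change of all tested genes from 0.04 to 0.15. Replicate numbers did not pair the samples (deviations of same-numbered libraries correlated at -0.49 to 0.39). A fit with the replicate block gave 85 calls over all genes in place of 280. With it Cyp1a1 (adjusted p = 0.066) and Cyp4v3 (0.112) lost their calls, and the counts fell to 0 for heme genes higher, phase I enzymes lower, phase II enzymes lower, and sterol partners in both directions. The number of P450 genes higher in Ad-GHRKO was 3, and was 1 without the filter, 5 with array weights and 1 to 4 when 1 library was left out; with 1 library left out, the lower count was 3 each time. Cyp4b1 also passed with median ratio scaling, quantile normalization and array weights, and Cyp27a1 with array weights. Among genes that never passed, 6 changed sign. With 1 library left out, Cyp2j6 ran from -0.052 (without Ad-GHRKO 5) to 0.27, Cyp39a1 from -0.10 (Ad-GHRKO 1) to 0.23, Cyp4f13 from -0.040 (Flox 5) to 0.25, Cyp4f16 from -0.23 to 0.035 (Ad-GHRKO 1), Cyp4f18 from -0.058 (Flox 5) to 0.42 and Cyp4f39 from -0.050 (Ad-GHRKO 1) to 0.43. Cyp39a1 was at -0.26 with array weights, -0.015 without the 3 muscle-rich and -0.0016 without the 4 hepatocyte-rich libraries. Cyp4f18 was at -0.037 without the muscle-rich libraries, Cyp4f16 at 0.0019 with TPM rescaling and 0.17 without the hepatocyte-rich libraries, and Cyp4f39 at -0.53 without the latter. For the gene lists, with 1 library left out, higher and lower counts were 0 to 1 for redox partners higher, 0 to 2 and 0 to 1 for heme genes, 0 to 1 for growth hormone-linked regulators lower, 1 to 6 and 0 to 2 for phase I enzymes, 0 to 3 and 1 to 2 for phase II enzymes, 0 to 1 both ways for eicosanoid enzymes, and 0 to 3 and 0 to 2 for sterol partners. Without the filter, the counts were 0 for heme genes higher, phase I lower, phase II lower and sterol partners both ways. With a filter of 5 FPKM they were 1 for heme genes lower, 2 for phase I lower and 0 for sterol partners higher, since Akr1c14 was then untested. Median ratio scaling and quantile normalization each gave 1 heme gene lower, 5 phase I higher and 2 lower, 1 phase II higher and 1 eicosanoid enzyme higher, and the former 2 sterol partners lower; TPM rescaling gave 0 for phase I lower and sterol partners lower. Array weights gave 1 redox partner higher, 2 heme genes higher and 1 lower, 1 growth hormone-linked regulator lower, 7 phase I higher and 2 lower, 3 phase II higher and 2 lower, 1 eicosanoid enzyme each way and 3 sterol partners higher. The muscle covariate gave 1 heme gene lower, 2 growth hormone-linked regulators lower, 5 phase I higher and 3 lower, 1 phase II higher, 1 eicosanoid enzyme higher, and 2 sterol partners higher and 3 lower. Without the 3 muscle-rich libraries there were 1 redox partner lower, 6 phase I higher, 1 phase II higher and 2 lower, 1 eicosanoid enzyme higher and 0 sterol partners either way. Without the 4 hepatocyte-rich libraries there were 1 growth hormone-linked regulator lower, 5 phase I higher and 0 lower, 0 phase II lower, 1 eicosanoid enzyme higher and 0 sterol partners either way. Limma voom gave 2 phase I enzymes lower. The causes of these shifts were not tested, apart from the smaller number of samples or genes that some settings leave. Depth limits the low genes: Cyp4a32 rests on 6 to 56 reads per library and Cyp1a1 in Ad-GHRKO 5 on 3.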
